A study of Mus musculus with 4 samples.

Results

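The Fc receptor genes were 9 of the 31055 features measured in the lung tumor cells, taken by symbol: Fcgr1, Fcgr3, Fcgr4, Fcgr2b, Fcer1g, Fcer1a, Ms4a2, Fcmr and Fcgrt. All 9 were detected, and together they were read in 17 cell classes of at least 50 cells, set by marker genes. Viable cells of dissociated lung tumors from 4 mice, 2 Restored and 2 Non-Restored, were profiled by single-cell RNA sequencing. All 4 carried KrasLSL-G12D, Lkb1XTR/XTR and Rosa26LSL-tdTomato, in which lentiviral Cre turns on the oncogene and the tdTomato reporter and inverts a trap that stops Lkb1 transcription. The Restored mice also carried FLPo-ERT2, a recombinase that removes the trap after tamoxifen, and the Non-Restored mice did not. Tumors grew for 16 weeks and both groups received tamoxifen in 4 mg doses for 2 weeks, so no untreated or tumor-free mouse stands beside them. The labels give all 4 mice as female, while the methods of the study describe cohorts of both sexes for its mouse experiments as a whole. The mice were of a mixed genetic background. Their age at initiation is not in the labels, though the methods of the study give an age range for its lung tumor models as a whole.

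Fc receptors bind the constant part of antibodies and so let innate cells read which targets antibodies have coated. In the mouse, FcγRI (Fcgr1), FcγRIII (Fcgr3) and FcγRIV (Fcgr4) activate the cell and need a common signalling subunit, the Fc receptor γ chain (Fcer1g), while FcγRIIb (Fcgr2b) inhibits and is the Fcγ receptor that B cells are known for. Fcer1a and Ms4a2 encode the α and β chains of the high-affinity IgE receptor of basophils and mast cells. Fcmr encodes the receptor for IgM, and Fcgrt the heavy chain of the neonatal Fc receptor, which returns IgG and albumin from endosomes.

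The deposited counts of the 4 mice formed 1 matrix of 20351 cells with 58624795 unique molecular identifiers (UMIs, 1 per captured transcript), at a median of 1960 UMIs per cell. After filters, 19488 cells were left, and 14843 of them (76.2%) took a class. Cells are known only by their column number, so they could not be given to a mouse, and shared barcodes could not be counted. Restored and Non-Restored mice were therefore not compared, the matrix counts as 1 sample without replicates, and no p-value is given. Each interval is a 95% interval that covers counting error only, not the spread between mice. Classes may draw unequally on the 4 mice. Levels are CPM, the UMIs of a gene per 1000000 UMIs of its class. Each transcript is counted once at its 3′ end whatever its length, yet genes may be captured unequally, so a ratio of 2 genes is best read between classes.

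Of the 9 genes, 5 (Fcgr2b, Fcgr4, Fcgr3, Fcer1g and Fcer1a) lie in a stretch of 2.27 Mb of chromosome 1 (chr1:170958617-173227214, mm10). Fcmr lies elsewhere on that chromosome (chr1:130865669-130880791), Fcgr1 on chromosome 3 (chr3:96282909-96293969), Fcgrt on chromosome 7 (chr7:45092990-45103851) and Ms4a2 on chromosome 19 (chr19:11615523-11623719). Genes annotated on the opposite strand overlap Fcgr2b (Gm38204) and Fcgrt (Gm45669). Fcgr2b and Fcgr3 are close relatives: 12.8% of the 50-base windows of the Fcgr3 transcript also occur in that of Fcgr2b. None of the windows in the last 500 bases of either transcript was shared, and it is this end that the assay reads.

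What makes a receptor activating or inhibitory is a short coding stretch for the part inside the cell. For Fcgr1, Fcgr3 and Fcgr4 this stretch is that of the shared chain Fcer1g, and for Fcgr2b it is its own. The coding bases that carry this difference are those of the activation motif (ITAM) of Fcer1g, spliced from exons 4 and 5 (chr1:171229889-171230072, minus strand), that of Ms4a2 in exon 7 (chr19:11617512-11617553, minus strand), and the inhibition motif (ITIM) of Fcgr2b in exon 8 (chr1:170961071-170961088, minus strand). They were read from GENCODE vM21 transcripts, 5′ to 3′, and capitals mark the codons for tyrosine, the residue that is phosphorylated.
Fcer1g ITAM: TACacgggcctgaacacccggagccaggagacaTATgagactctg
Ms4a2 ITAM: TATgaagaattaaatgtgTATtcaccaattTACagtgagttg
Fcgr2b ITIM: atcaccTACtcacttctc

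Short motifs were also searched upstream, where members with a shared class pattern could be set side by side. In the 250 bases before the RefSeq start (GRCm38.p6), AGATAA, a core bound by GATA factors, was searched on both strands (TTATCT on the other). It was present in 2 of the 9 members, Fcer1a (1 match) and Ms4a2 (3 matches), and in 10.3% of the 27025 genes' windows of the same length. AGGAAG, a core bound by ETS factors such as PU.1 (CTTCCT on the other strand), was present in 4 of 9, Fcgr1, Fcgr3, Fcgr4 and Fcer1g, and in 29.2% of all windows. Fcgr2b, Fcmr and Fcgrt held neither. These letters were chosen with the windows in view, and a match is not a binding site. The windows of the basophil pair and of 2 myeloid members are shown with the matches in capitals: Fcer1a at chr1:173227230-173227479, Ms4a2 at chr19:11623720-11623969, Fcgr3 at chr1:171059404-171059653 and Fcer1g at chr1:171234350-171234599, all on the minus strand and printed in the gene's direction.
Fcer1a upstream window: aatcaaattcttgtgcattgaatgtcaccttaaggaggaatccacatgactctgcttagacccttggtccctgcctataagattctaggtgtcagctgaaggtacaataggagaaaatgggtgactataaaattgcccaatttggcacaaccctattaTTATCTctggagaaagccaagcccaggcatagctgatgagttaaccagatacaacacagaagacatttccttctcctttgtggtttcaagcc
Ms4a2 upstream window: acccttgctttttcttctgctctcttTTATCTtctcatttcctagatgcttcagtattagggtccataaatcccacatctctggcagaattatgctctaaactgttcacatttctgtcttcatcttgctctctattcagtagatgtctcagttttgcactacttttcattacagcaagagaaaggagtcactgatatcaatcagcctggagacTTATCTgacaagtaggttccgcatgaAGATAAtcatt
Fcgr3 upstream window: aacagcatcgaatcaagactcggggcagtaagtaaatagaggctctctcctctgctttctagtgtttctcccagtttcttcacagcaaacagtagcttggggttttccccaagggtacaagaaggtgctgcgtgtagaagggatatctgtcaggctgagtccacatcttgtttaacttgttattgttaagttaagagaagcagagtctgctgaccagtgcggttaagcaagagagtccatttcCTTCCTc
Fcer1g upstream window: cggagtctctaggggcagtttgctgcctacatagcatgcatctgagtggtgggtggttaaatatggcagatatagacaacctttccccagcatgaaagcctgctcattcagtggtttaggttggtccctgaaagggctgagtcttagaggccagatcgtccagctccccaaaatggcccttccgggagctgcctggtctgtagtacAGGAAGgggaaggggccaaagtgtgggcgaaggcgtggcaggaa

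The 9 genes fell into 4 patterns over the classes. The Fcγ receptors and Fcer1g were found mainly in myeloid cells, with Fcer1g also in NK cells and Fcgr2b also in B cells. Fcer1a and Ms4a2 were found in basophils and Fcmr in B cells. Fcgrt was found in macrophages, monocytes, dendritic, endothelial and stromal cells. T cells, which are not known for Fc receptors, were the reference for a low level, with 4.53 CPM of Fcgr3, 4.37 CPM of Fcgr2b and 31.9 CPM of Fcer1g over 3327 cells. Free RNA in droplets was not estimated.

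**Figure D1:**
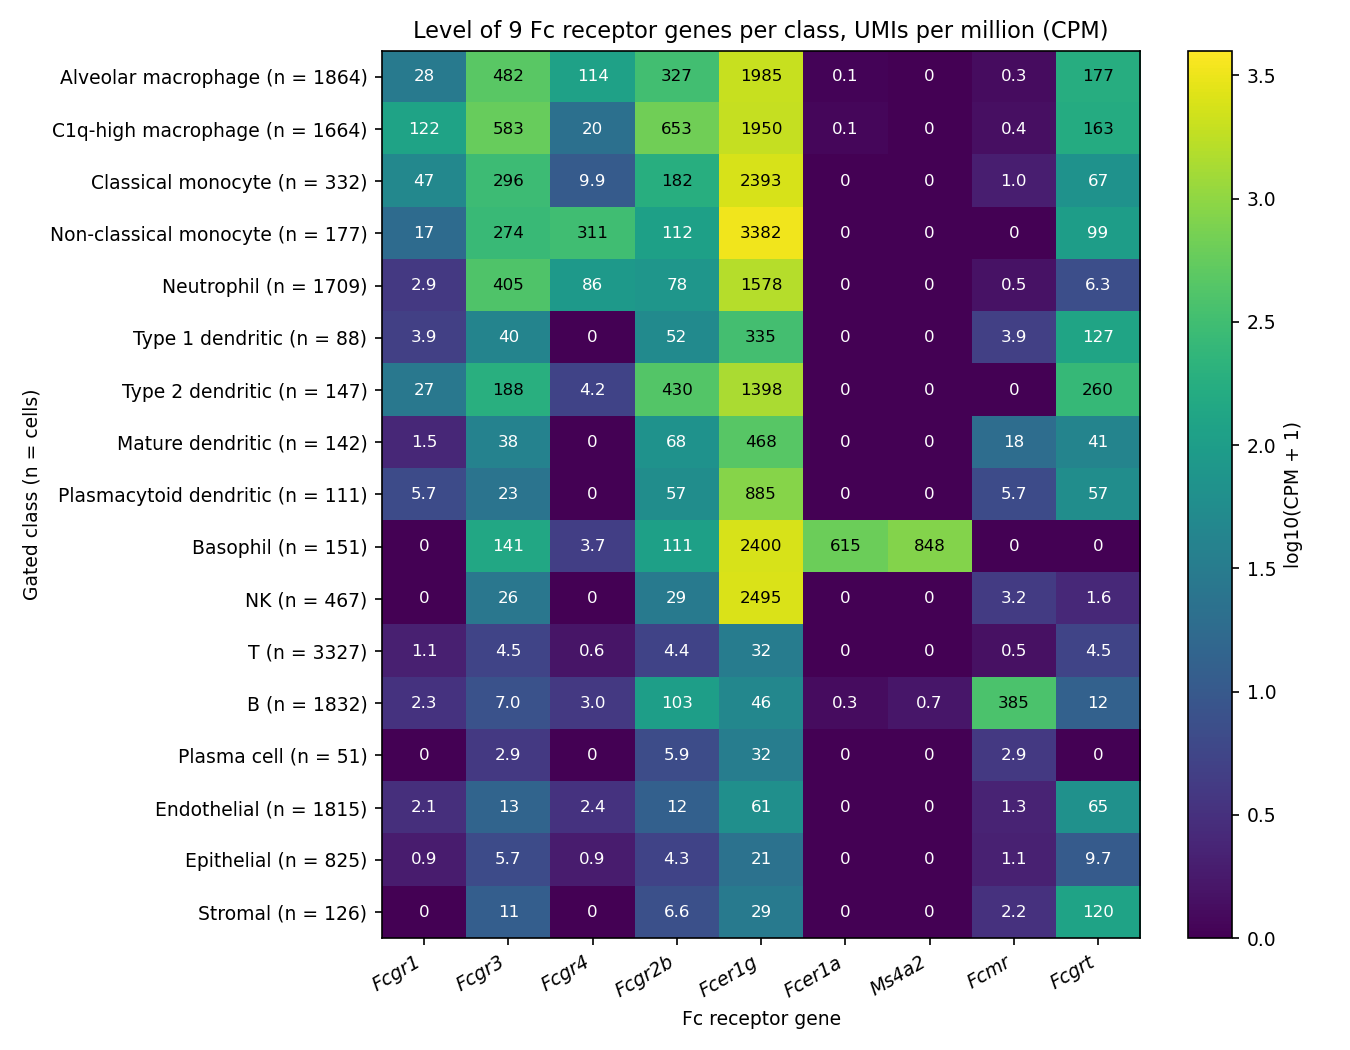
Level of each Fc receptor gene (columns) in each gated class (rows, n is cells), with the CPM printed in every field and the colour giving log10(CPM + 1). Fcer1g spans most innate classes, from 335 CPM in type 1 dendritic to 3382 CPM in non-classical monocytes, while Fcer1a and Ms4a2 stand in basophils (615 and 848 CPM) and Fcmr in B cells (385 CPM).

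Fcgr1, the high-affinity IgG receptor, was highest in C1q-high macrophages, the interstitial or tumor-associated type that expresses complement C1q, at 122 CPM (interval 114 to 130.5; 874 UMIs in 1664 cells). Classical monocytes followed with 47.3 CPM, alveolar macrophages with 28.1 CPM and type 2 dendritic cells with 26.8 CPM. C1q-high macrophages exceeded alveolar macrophages 4.34-fold (3.79 to 4.98), and classical monocytes exceeded alveolar macrophages 1.68-fold (1.21 to 2.29). Alveolar macrophages and type 2 dendritic cells did not differ beyond counting error (ratio 1.05, 0.66 to 1.77). Neutrophils had 6 UMIs (2.93 CPM) and none of them lay in the 3 neutrophil clusters of at least 50 cells. Basophils and NK cells had 0 UMIs, where 3 UMIs would be 11.1 and 4.83 CPM.

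Fcgr3, the low-affinity activating receptor, was the most widely found ligand-binding chain. It reached 583 CPM (566 to 601) in C1q-high macrophages, 482 CPM (469 to 496) in alveolar macrophages and 405 CPM (378 to 433) in neutrophils, and these 3 classes were apart from each other. Classical and non-classical monocytes had 296 and 274 CPM, a ratio of 1.08 (0.867 to 1.36) that left them not apart. Type 2 dendritic cells had 188 CPM and basophils 141 CPM, again not apart (1.33, 0.923 to 1.96). The alveolar macrophages held 45.5% of the Fcgr3 UMIs of all classed cells and the C1q-high macrophages 39.3%.

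Fcgr4, which binds some IgG subclasses and also IgE, separated cells that Fcgr3 did not. Non-classical monocytes, the patrolling type, had 311 CPM (259 to 370; 125 UMIs) against 9.86 CPM (10 UMIs) in classical monocytes, a 31.5-fold difference (16.6 to 67.3). Alveolar macrophages had 114 CPM and C1q-high macrophages 20.1 CPM, 5.67-fold (4.77 to 6.80), the opposite order to Fcgr1. Neutrophils had 86.4 CPM (74.2 to 100.2). The dendritic classes had 0 to 3 UMIs each, and NK cells had 0 UMIs.

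Fcgr2b, the inhibitory receptor, led in C1q-high macrophages with 653 CPM (634 to 672), above type 2 dendritic cells with 430.2 CPM (383 to 481) and alveolar macrophages with 327 CPM (316 to 338.5). C1q-high macrophages held 2.00-fold (1.91 to 2.09) the level of alveolar macrophages. Classical monocytes had 182 CPM and non-classical monocytes 112 CPM. Next came basophils (111 CPM) and B cells (103 CPM), which did not differ from each other beyond counting error (1.08, 0.717 to 1.58). Neutrophils had 78.1 CPM, 8.35-fold (7.13 to 9.84) below C1q-high macrophages. Type 2 dendritic cells exceeded type 1 dendritic cells 8.27-fold (5.57 to 12.8) and mature dendritic cells, the migratory state that expresses Ccr7, 6.32-fold (4.61 to 8.84). B cells exceeded plasma cells, their antibody-secreting descendants, 17.5-fold (4.80 to 145), though plasma cells gave only 2 UMIs in 51 cells.

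The balance of activating to inhibitory receptor transcripts, the UMIs of Fcgr1, Fcgr3 and Fcgr4 over those of Fcgr2b, ran from neutrophils at the activating end to B cells at the inhibitory end. It was computed in the 15 classes with at least 20 such UMIs. Neutrophils had 1012 activating and 160 inhibitory UMIs, a log2 ratio of 2.66 (2.42 to 2.91). Non-classical monocytes followed at 2.43 (1.96 to 2.92). Among cells with at least 500 genes these 2 classes changed places, at 2.21 for neutrophils and 2.38 for non-classical monocytes. Both classes lay beyond classical monocytes at 0.95 (0.69 to 1.22) and alveolar macrophages at 0.93 (0.87 to 0.99). C1q-high macrophages were close to even at 0.15 (0.10 to 0.21), with 5194 activating and 4672 inhibitory UMIs. Type 2 dendritic cells stood on the inhibitory side at -0.98 (-1.26 to -0.69), as did mature dendritic cells at -0.79 (-1.55 to -0.06), although their interval took in 0 with a stricter gate (-1.68 to 0.20), a looser gate (-1.36 to 0.04) or Louvain clusters (-1.34 to 0.46). B cells had 37 activating and 307 inhibitory UMIs, at -3.05 (-3.59 to -2.56).

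**Figure D2:**
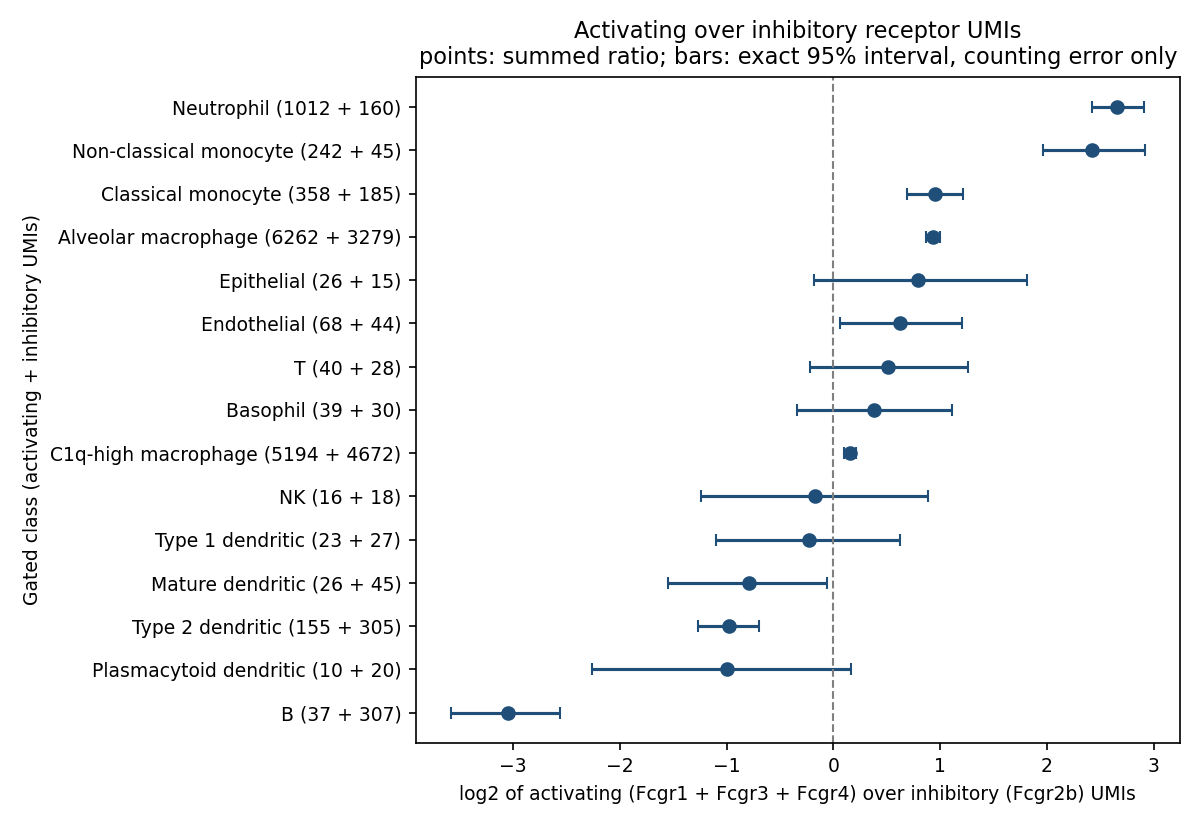
Log2 ratio of activating over inhibitory Fcγ receptor UMIs (horizontal axis) per gated class (vertical axis, with both UMI sums); points are ratios of sums and bars exact 95% intervals of counting error. Neutrophils (2.66) and non-classical monocytes (2.43) lie at the activating end, C1q-high macrophages near 0 (0.15), and B cells at the inhibitory end (-3.05).

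Most neighbours in this order were not apart. Of 14 neighbouring pairs, 2 had an interval of the difference that left out 0: non-classical over classical monocytes, by 1.47 (0.95 to 2.00), and plasmacytoid dendritic over B cells, by 2.05 (0.85 to 3.25). Over all 105 pairs of classes, 65 were apart, with no correction for their number. Among them were alveolar over C1q-high macrophages by 0.78 (0.70 to 0.86) and C1q-high macrophages over type 2 dendritic cells by 1.13 (0.84 to 1.41). The ratio rested on 30 UMIs in plasmacytoid dendritic cells, 34 in NK cells and 50 in type 1 dendritic cells. In T, epithelial and endothelial cells it rested on 68, 41 and 112 UMIs. Endothelial Fcgr3 was 2.96-fold (1.84 to 4.85) the T-cell level. Markers of C1q-high macrophages, alveolar macrophages, classical monocytes and neutrophils summed to 129, 345, 294 and 340 CPM in endothelial cells. In T cells the same sums were 40.3, 120, 257 and 90.0 CPM. Their part in the endothelial Fcgr3 value was not tested. Within C1q-high macrophages the balance was not uniform. The ratio was 1.32 (1.26 to 1.40) in the 1004 cells of 1 Louvain cluster and 0.865 (0.812 to 0.922) in the 603 cells of the other, on either side of even. With clusters in place of gates, the log2 ratio of these macrophages was 0.0041 (-0.04 to 0.05), an interval that held 0. Neutrophil clusters ranged from 3.04 (1.90 to 5.05; 141 cells) to 9.48 (7.55 to 12.04; 1421 cells), all on the activating side. Alveolar macrophage clusters ranged from 1.88 (1.80 to 1.96; 1689 cells) to 4.04 (2.92 to 5.69; 95 cells).

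The make-up of the Fcγ receptor transcripts differed also among classes of like balance. In neutrophils, Fcgr3 made 70.7% (68.0 to 73.3), Fcgr4 15.1% and Fcgr2b 13.7% of the 1172 UMIs. In non-classical monocytes, whose balance was not apart from that of neutrophils (difference 0.23, -0.28 to 0.75), Fcgr4 made 43.6% (37.7 to 49.5) and Fcgr3 38.3% (32.7 to 44.2). In classical monocytes and alveolar macrophages, Fcgr2b made 34.1% and 34.4%, but Fcgr1 made 8.84% of the former and 2.96% of the latter, and Fcgr4 1.84% and 11.99%. In B cells, Fcgr2b made 89.2% (85.5 to 92.3) of 344 UMIs.

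**Figure D3:**
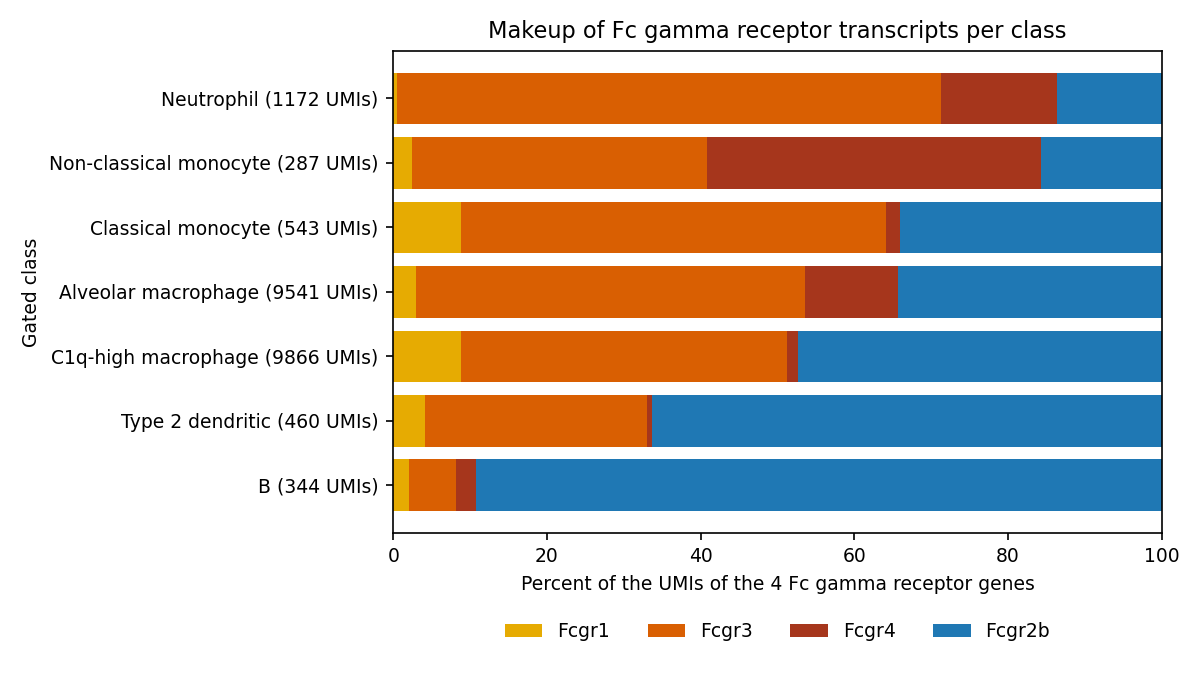
Percent of the UMIs of the 4 Fcγ receptor genes (horizontal axis) that each gene contributes in 7 gated classes (vertical axis, with the UMI total). Fcgr2b takes 13.7% in neutrophils, 47.4% in C1q-high macrophages, 66.3% in type 2 dendritic cells and 89.2% in B cells, and Fcgr4 is widest in non-classical monocytes (43.6%).

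Shares of cells with a UMI gave a further view. After each cell was thinned to 1000 UMIs, which leaves out shallower cells (685 of 1709 neutrophils and 1651 of 1664 C1q-high macrophages remained), a UMI of Fcgr2b was found in 46.6% (44.1 to 49.0) of C1q-high macrophages, 29.5% (22.2 to 37.6) of type 2 dendritic cells, 25.9% (23.9 to 28.0) of alveolar macrophages and 9.26% (7.87 to 10.8) of B cells. Before thinning, the same classes gave 84.3%, 67.3%, 63.6% and 14.1%. Their cells had medians of 4125, 4354, 5453 and 1390.5 UMIs. T cells had 0.256% after thinning and 0.511% before, at a median of 1675 UMIs. Fcgr3 was found in 43.5% of thinned C1q-high macrophages, 36.5% of alveolar macrophages and 29.9% of neutrophils, and in 0.224% of T cells.

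Both kinds of transcript were read in single macrophages. Of thinned C1q-high macrophages, 24.4% had a UMI of Fcgr2b and of an activating receptor, 25.9% of an activating receptor alone and 22.2% of Fcgr2b alone. In alveolar macrophages these shares were 13.3%, 30.9% and 12.6%. The product of the shares of cells with either kind was 23.4% in C1q-high and 11.4% in alveolar macrophages, close to the shares with both. In neutrophils, 61.9% had neither kind, 32.7% an activating receptor alone, 3.50% Fcgr2b alone and 1.90% both. In B cells, 144 of 1566 cells had Fcgr2b alone, 10 an activating receptor alone and 1 both. A cell without a UMI at this depth may still express the gene.

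**Figure D4:**
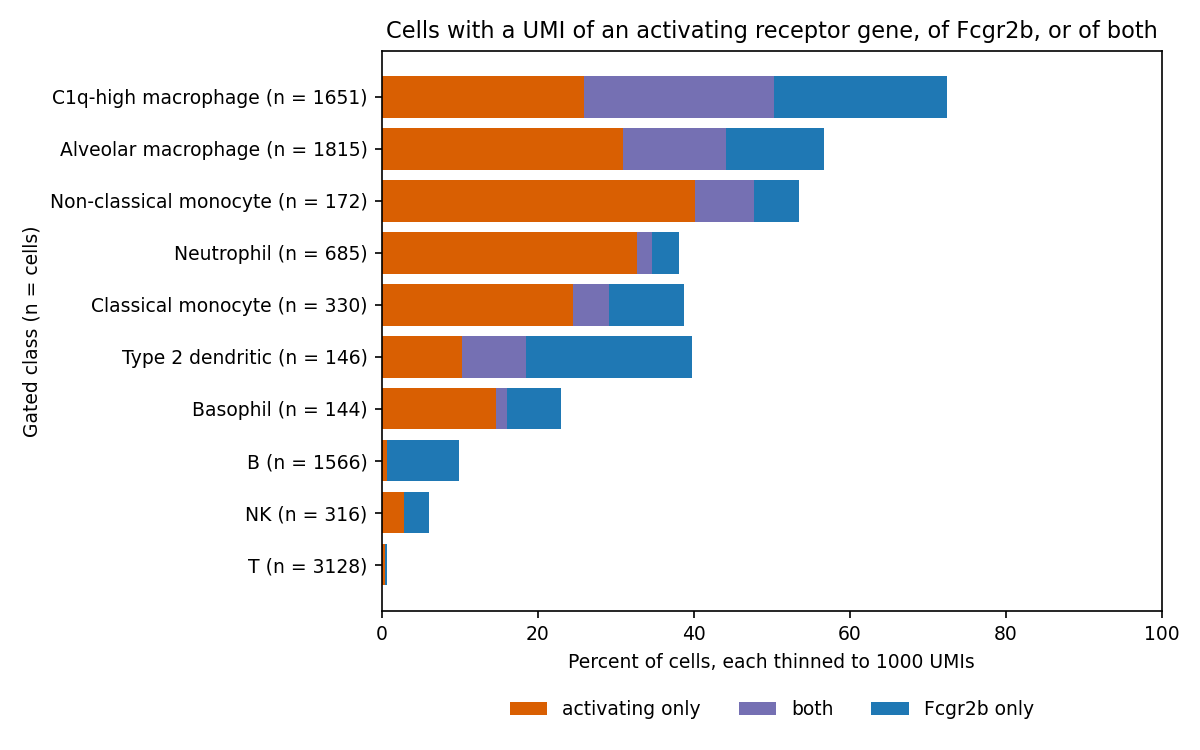
Percent of cells thinned to 1000 UMIs (horizontal axis) with a UMI of an activating Fcγ receptor gene only, of Fcgr2b only, or of both, in 10 gated classes (vertical axis, n is cells). Both kinds are found together in 24.4% of C1q-high macrophages and 13.3% of alveolar macrophages, and B cells show almost only Fcgr2b.

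Alveolar macrophages could also be split by the reporter. After thinning, 1550 of them (85.4%) had a TdTomato UMI and 265 had none. The share was 95.5% in epithelial cells, 13.5% in T cells and 8.48% in C1q-high macrophages, and without thinning it was 94.4%, 98.3%, 21.2% and 27.5% in these 4 classes. Whether a UMI came from the cell itself was not tested. With 94.4% of alveolar macrophages positive before thinning, part of the 265 cells had a TdTomato UMI that thinning removed. The activating over inhibitory ratio was 1.82 (1.63 to 2.03) in the 1550 cells and 1.66 (1.28 to 2.16) in the 265, so the intervals overlapped. Fcer1g was 1.22-fold (1.10 to 1.35) higher in the 1550 cells, and Fcgr4 was lower, at 109.7 against 158 CPM (ratio 0.692, 0.491 to 0.995).

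Fcer1g, the shared γ chain, had the highest level of the members, with 58382 UMIs in 8376 of the 19488 cells. Non-classical monocytes had 3382 CPM (3205 to 3567), 1.36-fold (1.26 to 1.46) above NK cells with 2495 CPM. NK cells were not apart from basophils with 2400.5 CPM (1.04, 0.948 to 1.14), nor basophils from classical monocytes with 2393 CPM (1.00, 0.918 to 1.09). Alveolar macrophages (1985 CPM) and C1q-high macrophages (1950.5 CPM) did not differ either (1.02, 0.996 to 1.04), although their receptors did. Neutrophils had 1578 CPM and type 2 dendritic cells 1398 CPM, while plasmacytoid, mature and type 1 dendritic cells had 885, 468 and 335 CPM. After thinning, a UMI was found in 93.0% of non-classical monocytes, 86.1% of basophils and 83.9% of NK cells, against 1.28% of T cells. B cells had 45.5 CPM, 1.43-fold (1.14 to 1.78) the T-cell level.

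Fcer1g also serves receptors outside this family, and its excess over the chains that bind antibody varied. Per UMI of Fcgr1, Fcgr3, Fcgr4 or Fcer1a, there were 2.69 (2.60 to 2.78) Fcer1g UMIs in C1q-high macrophages, 3.18 (3.09 to 3.27) in alveolar macrophages, 3.16 (2.70 to 3.72) in basophils and 3.19 (2.98 to 3.43) in neutrophils. Classical monocytes had 6.78 (6.06 to 7.59) and non-classical monocytes 5.62 (4.90 to 6.47). NK cells had the highest value, 96.8 (59.4 to 169.8), with 1549 Fcer1g and 16 chain UMIs. Plasmacytoid dendritic cells came next at 30.9 (16.6 to 65.1), an interval that overlapped that of NK cells and rested on 10 chain UMIs, and mature dendritic cells had 11.9 (7.96 to 18.5).

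In NK cells, cytotoxic lymphocytes for which FcγRIII is the known Fc receptor, Fcgr3 was low. It had 16 UMIs in 467 cells (25.8 CPM, 14.7 to 41.9), 5.69-fold (2.89 to 10.8) above T cells and below the macrophage, monocyte, neutrophil, basophil and type 2 dendritic classes. Fcgr2b was as high, with 18 UMIs (29.0 CPM, 17.2 to 45.8). A UMI of Fcgr3 was found in 2.85% of thinned NK cells and one of Fcgr2b in 3.16%. Beside this, 7 of the 8 C1q-high macrophage markers had UMIs in the NK class and summed to 188 CPM, against 40.3 CPM in T cells, 85.7 CPM in B cells and 13165 CPM in the macrophages themselves. The classical monocyte markers summed to 1358 CPM in NK and 257 CPM in T cells, the neutrophil markers to 325 and 90.0 CPM, and the alveolar macrophage markers to 87.0 and 120.0 CPM. Their part in the Fcgr3 and Fcgr2b values was not tested. Among T cells, Fcer1g was 79.6 CPM (63.6 to 98.4) in 521 CD8 cells, 23.8 CPM (13.3 to 39.2) in 335 gamma-delta cells and 11.6 CPM (7.09 to 17.9) in 783 CD4 cells, and Fcgr3 had at most 9 UMIs in each.

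The chains of the IgE receptor were found in basophils. Fcer1a had 166 UMIs in the 151 basophils, or 615 CPM (525 to 716), and Ms4a2 had 229 UMIs, or 848 CPM (742 to 966). The 16 other classes together held 3 UMIs of Fcer1a and 2 of Ms4a2. With 0 UMIs of either in 3327 T cells, basophils were at least 1312-fold higher for Fcer1a and at least 1809.8-fold higher for Ms4a2, taking 3 UMIs as the limit. In single basophils, 84 had a UMI of Fcer1a, 101 of Ms4a2 and 137 of Fcer1g. All 3 chains were seen together in 58 cells, and 28 cells had neither Fcer1a nor Ms4a2. Outside the basophil class, 23 cells had a UMI of Fcer1a or Ms4a2, of which 20 had taken no class and 19 of these lay in the basophil cluster. No cell took the mast-cell class, in which the markers Tpsb2 and Tpsab1 were at 0 in every cell. The study named a rare population among its cells putative mast cells. How that population relates to the basophils here was not tested. For IgG, basophils had Fcgr3 and Fcgr2b in like amounts, 38 and 30 UMIs (141 and 111 CPM), and 1 UMI of Fcgr4.

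Fcmr was found mainly in B cells. They had 1150 UMIs, or 385 CPM (363 to 408), 96.6% of all Fcmr UMIs in classed cells. A UMI was found in 30.7% (28.4 to 33.1) of thinned B cells and 42.4% without thinning, against 0.0320% and 0.0902% of T cells. Mature dendritic cells came next with 12 UMIs (18.2 CPM, 9.38 to 31.7), 21.2-fold (12.1 to 41.2) lower than B cells. Plasma cells had 1 UMI in 51 cells. The 1627 cells of the main B cluster had 430.1 CPM and the 186 of another 271 CPM.

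Fcgrt was highest in the type 2 dendritic and macrophage classes, as was Fcgr2b, and was also found in monocytes, stromal and endothelial cells. Type 2 dendritic cells led with 259.5 CPM (223 to 299.8), 1.47-fold (1.25 to 1.71) above alveolar macrophages with 177 CPM (169 to 185), and C1q-high macrophages had 163 CPM (153 to 172). Type 1 dendritic cells (127 CPM), stromal cells (119.6 CPM) and non-classical monocytes (99.5 CPM) came next and were not apart from their neighbours. Endothelial cells had 65.0 CPM (57.1 to 73.6), 14.3-fold (9.74 to 21.9) above T cells, with a UMI in 7.26% of thinned cells. Epithelial cells, which here include the tumor cells, had 9.71 CPM (6.72 to 13.6). Neutrophils had 13 UMIs (6.35 CPM), 25.6-fold (14.9 to 48.2) below C1q-high macrophages, and basophils had 0 UMIs, where 3 would be 11.1 CPM. The neutrophil level lay 1.40-fold (0.669 to 2.78) from that of T cells, 4.53 CPM.

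The cells that took no class, 4645 of them, held 2778 UMIs of Fcgr3 (233 CPM) and 3339 of Fcgr2b (280 CPM), more Fcgr2b than Fcgr3, and are in none of the values above.

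Across the 15 classes of at least 100 cells, the pattern of some genes was close to that of a member, by Pearson's r of log2(CPM + 10) among 6303 genes. These are descriptions over classes that share 1 pooled set of cells. Fcer1g was closest to Tyrobp (r = 0.97), which encodes the adaptor DAP12, then Plek (0.92) and Arpc2 (0.91). Fcgr1 was close to P2ry6 (0.94) and Ppp1r21 (0.90), and Fcgr2b to Man2b1 (0.87), which encodes a lysosomal enzyme, and Cfp (0.86). Fcgr3 was closest to Cd300c2, Apobr and Clec4a2 (0.91 each), and Fcgr4 to Tlr8 (0.90), C130050O18Rik (0.90) and Cln3 (0.88). Fcer1a and Ms4a2 were both closest to Cpa3 (1.00 each), a gate marker of the basophils, and both had Defb40 among their 3, with Cyp11a1, another gate marker, for Fcer1a and Csrp3 for Ms4a2. Both members were near 0 outside basophils, so any gene confined to basophils has an r near 1 with them. The order among such genes carries little meaning. Fcmr was closest to Rab30 and Cxcr5 (0.99 each) and the gate marker Ms4a1 (0.98), and Fcgrt to Cmtm3 (0.91), Ctnnbip1 (0.91) and Plbd2 (0.90). Among members, r was 0.83 between Fcgr3 and Fcgr2b, 0.71 between Fcgr3 and Fcgr4 and 0.41 between Fcgr1 and Fcgr4. For Fcgrt it was 0.68 with Fcgr1, 0.51 with Fcgr2b, 0.42 with Fcgr3 and 0.29 with Fcgr4.

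The other genes of the pathway were read from 5 lists of 61 genes, as at least 4-fold differences of 5 classes from T cells among genes at 20 CPM or more in either. All 5 comparisons share the T cells. The lists include Lat, a gate marker of the T cells, and Cd22, a gate marker of the B cells, whose direction the gates favour. A gene near 0 in T cells could reach this level only through the other class and then had to be higher, so the counts are descriptions, and the shares over all genes were filtered in the same way. In C1q-high macrophages, 24 of 48 pathway genes were higher, against 12.9% of all 5839 genes, and 7 were lower, against 6.1%. In neutrophils, 24 of 46 pathway genes were higher, against 14.4%, and 8 were lower, against 11.8%. In NK cells, 7 of 33 pathway genes were higher, against 4.1%, and 2 were lower, against 3.29%, but the former count was 3 at a minimum of 50 CPM and 4 with no filter and a pseudocount of 10 CPM. In B cells, 14 of 39 pathway genes were higher, against 4.73%, and 8 were lower, against 5.49%. In basophils, 14 of 37 pathway genes were higher, against 9.39%, and 5 were lower, against 4.68%.

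The other receptors with an inhibition motif numbered 12, of which 10 reached the level in C1q-high macrophages and 10 in neutrophils. All of these were at 4-fold or more over T cells, where 12.9% and 14.4% of all genes were. They were low in T cells, so the filter left most of them no other outcome. Cd72 had 250.1 CPM in C1q-high macrophages and 18.4 CPM in T cells, and Sirpa, which binds the "do not eat me" signal CD47, had 208 and 3.91 CPM. In neutrophils, Cd300lf had 476 CPM and Sirpa 347 CPM. In B cells, Siglecg, Cd72 and Cd22 had 165, 111 and 84.7 CPM (Cd22 is also a gate marker). In alveolar macrophages, Sirpa had 820 CPM.

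Of the 10 other Fc receptors and Fc receptor-like genes, 3 reached the level in B cells, namely Fcrla (207 CPM), the low-affinity IgE receptor gene Fcer2a (189.9 CPM) and Fcrl1 (91.4 CPM). Fcrls alone did so in C1q-high macrophages, at 51.7 CPM against 0.156 CPM in T cells. Among the adaptors, Tyrobp was higher in C1q-high macrophages (2466 CPM), neutrophils (4276 CPM), NK cells (3156 CPM) and basophils (4119 CPM) than in T cells (36.4 CPM), and Cd247, the ζ chain of the T-cell receptor, was 139 CPM in T cells and 69.3 CPM in NK cells.

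Of the 24 downstream activating genes, 11 were higher and 4 lower in C1q-high macrophages, where 12.9% and 6.1% of all genes were, and 10 and 5 of 23 in neutrophils, where 14.4% and 11.8% were. Syk, the kinase that docks on the activation motif, had 371 CPM in neutrophils, 277 CPM in B cells, 113 CPM in C1q-high macrophages, 85.2 CPM in basophils and 2.50 CPM in T cells. Its T-cell relative Zap70 had 75.6 CPM in T cells and 62.8 CPM in NK cells. Lyn, which phosphorylates both kinds of motif, had 361 CPM in neutrophils and 5.47 CPM in T cells. The adaptor gene Lat2 had 337 CPM in basophils, 130.2 CPM in C1q-high macrophages and 0.399 CPM in alveolar macrophages. Of the 9 inhibitory signalling genes that reached the level in C1q-high macrophages, 1 was higher and 1 lower, a share for higher genes near that over all genes. Inpp5d, the phosphatase SHIP1 that acts behind FcγRIIb, had 399 CPM in B cells, 166 CPM in C1q-high macrophages and 107 CPM in T cells.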

How the data were processed

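Droplet-based 3′ single-cell RNA sequencing was performed by the authors on DAPI-negative cells of dissociated lung tumors of 4 mice, 2 per group. Raw UMI counts per gene and cell, joined over mice, were deposited by the authors from Cell Ranger 3.0.2 (per the file header) with reads aligned to mm10. The feature list was used only for gene symbols. Depth per mouse is unknown here.

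Cells with at least 200 genes and at or under the 98th percentile of genes (2713) and of mitochondrial share (13.4%) were kept. The study's own percentiles are not stated, and its removal of tdTomato-positive cells outside the epithelium was not applied. A cell took the class with the highest weighted marker score if it had at least 3 of its markers and 1.5 times the score of the next class. This scoring was set after a look at the data, and 4645 cells (23.8%) took no class. These classes are not the study's own, and values can differ from the study for that reason. Doublets were kept in the main setting, and 181 of 20299 cells were called by Scrublet in scanpy 1.11.5 at an expected rate of 6%. Clusters came from Seurat 5.3.0 (25 dimensions, resolution 1, members left out of the variable genes).

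The UMIs of a gene in a class, over all UMIs of the class, gave its CPM. Intervals are exact Poisson, Clopper-Pearson or conditional 95% intervals, and a Wald interval for differences of log2 ratios. They cover counting error only. A limit of 3 UMIs stands for 0. The ratio and 4-fold steps were tested on simulated data. Genes named are the 9 members, genes of 5 pathway lists with the highest level in a class (at most 4 per list), and the 3 genes with the closest pattern to each member, of which some are not reported here. Zap70, Lat2, Lyn, Syk, Cd247 and Cd22 were added for their role after their values were seen. The members and lists were chosen with earlier results of these data known. Cd22 and Lat are in both a marker and a pathway list. Alternatives were 500 genes, other cut-offs, doublets removed, gates by 1 marker stricter or looser, clusters, thinning, and other low-value filters.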

Additional observations from a re-analysis of the deposited data

How the results depend on the processing

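Of 225 recomputed values, 183 lay inside the counting interval given in the report (for counts of genes, within 1.5 times), and 42 moved. No log2 ratio whose interval left out 0 changed sign. That of NK cells, whose interval held 0, was -0.17 as reported, 0 with at least 500 genes, 0.07 with the looser gate and 0.39 with clusters. The interval of mature dendritic cells took in 0 under 3 alternatives and that of endothelial cells under 5. Each member kept its highest class in every alternative that gave that class a value. With at least 500 genes the log2 activating over inhibitory ratio of neutrophils was 2.21, below non-classical monocytes at 2.38, and without upper cut-offs that of B cells was -2.54. With 95th percentile cut-offs Fcer1a in basophils was 514 CPM. With Louvain clusters the ratio of C1q-high macrophages was 0.0041, and their Fcgr1, Fcgr3 and Fcgr2b were 95.9, 501 and 609 CPM, while Fcmr in B cells was 352 CPM. After thinning to 1000 UMIs, the ratio was 2.92 in neutrophils, 0.84 in alveolar macrophages and -3.75 in B cells, and Fcgr4 and Fcer1g in non-classical monocytes were 395 and 3576 CPM. The cause was not tested in these cases.

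Shares of cells with a UMI follow the depth to which cells are thinned. Not thinned, to 2000 and to 500 UMIs, they were 37.6%, 21.8% and 5.95% for Fcgr1, 85.3%, 65.8% and 26.6% for Fcgr3 and 84.3%, 65.9% and 25.1% for Fcgr2b in C1q-high macrophages, 98.9%, 97.3% and 75.7% for Fcer1g in non-classical monocytes, 42.4%, 40.3% and 18.1% for Fcmr in B cells, and 63.9%, 37.6% and 11.6% for Fcgrt in type 2 dendritic cells. Not thinned and to 500 UMIs, they were 41.8% and 15.3% for Fcgr4 in non-classical monocytes, 55.6% and 28.5% for Fcer1a and 66.9% and 35.8% for Ms4a2 in basophils. Pathway genes higher in NK than in T cells numbered 3 at a minimum of 50 CPM and 4 with no filter and a pseudocount of 10 CPM, and 1 was lower in either case. With no filter, 5 were lower in B cells.

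Clusters gave no class of classical or non-classical monocytes or of type 1 or 2 dendritic cells, thinning left under 20 Fcγ receptor UMIs in epithelial, mature, plasmacytoid and type 1 dendritic cells, and the stricter gate did so in NK cells. No alternative left out a replicate, since no cell has a known mouse, and depth per mouse is unknown. No paired analysis was possible because cells are not tied to mice. The 34 Fcγ receptor UMIs of NK cells leave wide intervals for them.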
